A study of Mus musculus with 2 samples.

Results

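The 9 genes described here encode digestive enzymes, or an enzyme cofactor, that acinar cells of the exocrine pancreas make and store in zymogen granules, the proteases as inactive precursors. They are Ctrb1, Prss2, Cela1, Cela2a, Cela3b, Cpa1, Cpb1, Pnlip and Clps, 9 of the 55487 genes listed. They were chosen by symbol and because their levels differed between the 2 libraries, so their levels and ratios are given as a description, with no test. Both libraries hold RNA from islet cells that were dissociated with trypsin and purified by fluorescence-activated cell sorting. The mice were 2 months old and carried floxed alleles of 3 Myt family genes (MytF/F, Myt2F/F and Myt3F/F) together with RipCre, in which the rat insulin promoter drives Cre recombinase. Males and females were pooled, the labels call library 2 a duplicate of library 1, and nothing says whether it came from other mice. Control cells were not analysed here, so every comparison below sets library 2 against library 1 of the same group.

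The exocrine pancreas surrounds the islets. Its acinar cells release trypsinogen, chymotrypsinogen, proelastases, procarboxypeptidases, lipase, amylase and nucleases into the ducts. In the gut, enteropeptidase turns trypsinogen into trypsin, and trypsin then activates the other precursors. In acinar cells, the transcription factor complex PTF1, which holds Ptf1a and Rbpjl, is known to bind an E box together with a neighbouring box of the RBPJ kind in the promoters of these genes.

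RefSeq start sites (GRCm38.p6) gave a 250-base window upstream of 8 of the 9 genes. Windows of 4 genes are shown, as the gene with most reads (Ctrb1), the genes with the widest and the narrowest gap between the libraries (Cpb1 and Cela1) and the gene with no E box in its window (Pnlip). Capitals mark CANNTG (the E box), TTCCCA or its reverse complement TGGGAA (the core of the box that RBPJ proteins bind), and TATAAA. The windows lie at chr8:111691011-111691260 (minus strand), chr3:20275734-20275983 (minus strand), chr15:100687921-100688170 (minus strand) and chr19:58670115-58670364 (plus strand), each read in the direction of its gene. The Pnlip window lies inside the annotated span of the gene, whose GENCODE model also holds an earlier start.
Ctrb1: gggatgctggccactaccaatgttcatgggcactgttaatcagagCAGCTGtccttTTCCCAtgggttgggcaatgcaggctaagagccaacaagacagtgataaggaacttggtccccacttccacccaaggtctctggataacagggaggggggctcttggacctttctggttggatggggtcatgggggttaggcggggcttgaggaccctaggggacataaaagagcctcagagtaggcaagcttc
Cpb1: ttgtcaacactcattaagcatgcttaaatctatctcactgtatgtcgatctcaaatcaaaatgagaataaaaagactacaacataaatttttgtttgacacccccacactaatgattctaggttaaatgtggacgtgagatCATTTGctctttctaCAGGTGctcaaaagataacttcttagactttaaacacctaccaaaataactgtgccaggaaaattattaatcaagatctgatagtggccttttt
Cela1: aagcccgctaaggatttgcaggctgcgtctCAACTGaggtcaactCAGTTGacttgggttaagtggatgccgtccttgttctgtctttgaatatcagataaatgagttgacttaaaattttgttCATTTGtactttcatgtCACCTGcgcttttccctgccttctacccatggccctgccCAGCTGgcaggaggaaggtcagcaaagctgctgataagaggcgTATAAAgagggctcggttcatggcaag
Pnlip: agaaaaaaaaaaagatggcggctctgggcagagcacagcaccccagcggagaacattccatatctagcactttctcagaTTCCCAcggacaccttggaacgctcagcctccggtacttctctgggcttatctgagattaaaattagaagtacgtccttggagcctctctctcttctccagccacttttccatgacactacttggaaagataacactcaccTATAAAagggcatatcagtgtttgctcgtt

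The E box letters CANNTG stood in 7 of the 8 windows, beside 66.2% of all 32851 RefSeq windows of that length. The narrower form CACCTG, read on both strands and itself a case of CANNTG, stood in 5 of the 8 windows and in 17.2% of all windows. CAGCTG, another case of CANNTG, stood in 2 of the 8 windows (Ctrb1 and Cela1) and in 13% of all windows. TTCCCA on either strand stood in 5 of the 8 windows and in 21.6% of all windows, and 4 of the 8 held both it and CANNTG, beside 14.8% of all windows. These counts include Cela2a, whose GENCODE model starts 155 bases upstream of the RefSeq start. Of its window, 155 bases lie in annotated exons. Its TGGGAA began 85 bases before the RefSeq start and so lies inside the annotated gene. TATAAA, searched on the gene's strand only and added after the windows were seen, stood in 3 of the 8 (Pnlip, Prss2 and Cela1) and in 7.59% of all windows. In Ctrb1 the CAGCTG letters began 205 bases before the start site and TTCCCA began 194 bases before it. For 18 other digestive enzyme genes of acinar cells there were 20 windows. CANNTG stood in 16 of these 20, CACCTG in 8, CAGCTG in 3, TTCCCA in 7 and TATAAA in 6. Both CANNTG and TTCCCA stood in 5 of the 20. Such matches describe the letters and do not show that a factor binds there.

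All 9 genes were counted in both libraries, and all 9 were higher in library 2. Of all 20681 genes with 10 or more reads summed, 9016 were higher in library 2. Together they took 20121 of 39003197 counted reads in library 2, against 5758 of 50121771 in library 1. In counts per 1000000 counted reads (CPM), that is 516 CPM in library 2 (exact Clopper-Pearson 95% interval 509 to 523) and 115 CPM in library 1 (112 to 118), a ratio of 4.49 (95% counting interval 4.36 to 4.62). Scaled by gene length to transcripts per 1000000 (TPM), the 9 genes summed to 1086.5 TPM in library 2 and 254 TPM in library 1. The level of Ins2, the main insulin transcript of these cells, exceeded that of the most abundant enzyme, Ctrb1, 598-fold in library 2 and 2228-fold in library 1 on the TPM scale. In such bulk samples, fewer cells of a type cannot be told apart from less RNA per cell. All intervals cover only counting error: the reads carry no molecular identifiers and need not stand for separate molecules, and the spread between mice or sorts is outside the intervals.

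**Figure D1:**
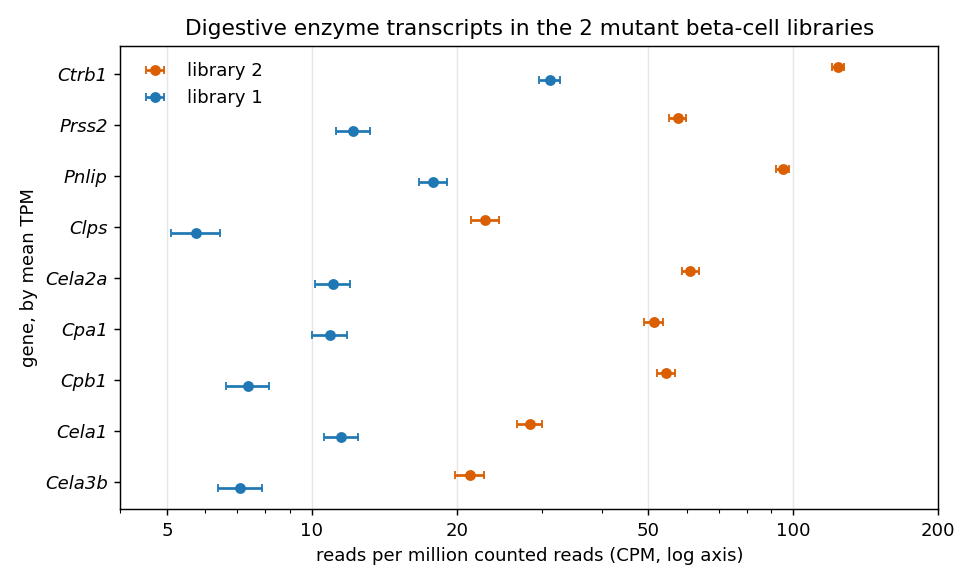
Level of each enzyme gene in library 2 (orange) and library 1 (blue), in CPM on a log axis, with exact 95% counting intervals. In all 9 rows the library 2 point lies to the right of the library 1 point, and the intervals do not overlap. The intervals cover only counting error, and the share of all genes without overlap was not computed.

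Per length, on the TPM scale given further on, chymotrypsinogen and trypsinogen transcripts were the most abundant of the serine proteases. By CPM, which is not scaled by length, Cela2a stood above Prss2 in library 2. Ctrb1 (ENSMUSG00000031957, chromosome 8 from 111686519 to 111691010, minus strand, 7 merged exons; GRCm38, GENCODE M21), which encodes chymotrypsinogen B, a protease precursor whose active form cuts after aromatic residues, had 4839 reads in library 2 and 1563 in library 1. Its level was 124 CPM (121 to 128) in library 2 and 31.2 CPM (29.7 to 32.8) in library 1, a ratio of 3.98 (3.76 to 4.21). Prss2 (ENSMUSG00000057163, chromosome 6 from 41521787 to 41525079, plus strand, 5 merged exons) encodes a trypsinogen, the precursor of the enzyme that activates the others. It had 2245 reads in library 2 and 610 in library 1, or 57.6 CPM (55.2 to 60.0) in library 2 and 12.2 CPM (11.2 to 13.2) in library 1. Both genes thus stood several-fold higher in library 2, Prss2 by 4.73-fold (4.32 to 5.18). Prss2 has close relatives beside it on chromosome 6, but 7.83% of its 50-base words occur in other genes, mostly in Try10, so most of its sequence is its own.

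The elastase genes, whose products cut after small or hydrophobic residues, did not keep one ratio. Cela2a (ENSMUSG00000058579, chromosome 4 from 141814962 to 141826160, minus strand, 8 merged exons) had 2381 reads in library 2 and 554 in library 1, or 61.0 CPM (58.6 to 63.5) in library 2 and 11.1 CPM (10.2 to 12.0) in library 1. Cela3b (ENSMUSG00000023433, chromosome 4 from 137420999 to 137430540, minus strand, 8 merged exons) had 830 reads in library 2 and 356 in library 1, or 21.3 CPM (19.9 to 22.8) in library 2 and 7.10 CPM (6.38 to 7.88) in library 1. Cela1 (ENSMUSG00000023031, chromosome 15 from 100674421 to 100687921, minus strand, 12 merged exons) had 1106 reads in library 2 and 576 in library 1, or 28.4 CPM (26.7 to 30.1) in library 2 and 11.5 CPM (10.6 to 12.5) in library 1. The ratio of library 2 over library 1 was 5.52 (5.03 to 6.07) for Cela2a, 2.99 (2.64 to 3.40) for Cela3b and 2.47 (2.23 to 2.73) for Cela1. On the TPM scale, the level of Cela2a exceeded that of Cela1 2.88-fold in library 2 and 1.29-fold in library 1. Cela2a lies wholly within the span of Ctrc on the same strand and shares 15.6% of its words with it, and Cela3b shares 19.2% with Cela3a, so their counts are uncertain to that extent. Casp9, on the opposite strand, overlaps 1015 bases of Cela2a and had 443 reads in library 2 and 703 in library 1; without a stated strand setting, reads of the overlap cannot be told apart. Cela1 shared no word with another gene.

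Of the 9 genes, a carboxypeptidase gene had the highest ratio. Cpa1 (ENSMUSG00000054446, chromosome 6 from 30639218 to 30645363, plus strand, 10 merged exons) encodes procarboxypeptidase A1, whose active form removes aromatic and aliphatic residues from the C terminus. It had 1999 reads in library 2 and 546 in library 1, or 51.3 CPM (49.0 to 53.5) in library 2 and 10.9 CPM (9.999 to 11.8) in library 1, a ratio of 4.70 (4.28 to 5.18). Cpb1 (ENSMUSG00000011463, chromosome 3 from 20248264 to 20275733, minus strand, 12 merged exons) encodes procarboxypeptidase B1, whose active form removes basic residues. It had 2122 reads in library 2 and 369 in library 1, or 54.4 CPM (52.1 to 56.8) in library 2 and 7.36 CPM (6.63 to 8.15) in library 1. Its ratio of 7.38 (6.61 to 8.28) was the highest of the 9 genes. The words of Cpa1 and Cpb1 occurred in no other gene.

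Transcripts of lipase and of its cofactor were both higher in library 2, those of the lipase by more. Pnlip (ENSMUSG00000046008, chromosome 19 from 58652498 to 58681788, plus strand, 14 merged exons) encodes pancreatic lipase, which splits dietary triglycerides. It had 3707 reads in library 2 and 896 in library 1, or 95.04 CPM (92.0 to 98.2) in library 2 and 17.9 CPM (16.7 to 19.1) in library 1. Clps (ENSMUSG00000024225, chromosome 17 from 28558149 to 28560766, minus strand, 3 merged exons) encodes colipase, which holds the lipase on bile-coated fat droplets. It had 892 reads in library 2 and 288 in library 1, or 22.9 CPM (21.4 to 24.4) in library 2 and 5.75 CPM (5.10 to 6.45) in library 1. The ratio was 5.31 (4.94 to 5.73) for Pnlip and 3.98 (3.48 to 4.56) for Clps. On the TPM scale, the level of Pnlip was 1.16 times that of Clps in library 2 and 0.866 times in library 1, so the order of the pair turned. Neither gene shared a word with another gene.

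The libraries differed by more for some enzymes than for others. The ratio of library 2 over library 1 ran between 2.47 for Cela1 and 7.38 for Cpb1, and the second was 2.99 times the first. The counting intervals of the ratios did not overlap in 26 of the 36 pairs of genes. The share over pairs of other genes was not computed. The 9 ratios spread beyond counting error. The counts of the 20681 genes with 10 or more reads summed also differed between the libraries beyond counting error. A chi-square test of homogeneity over those genes gave 28.6 per degree of freedom. That test does not measure how far ratios spread within a set of genes. Whether such spread is particular to the enzymes was not tested. The median log2 ratio was 2.23 for the 9 genes and -0.04 for the 20681 genes. All 9 genes were at 2-fold or more towards library 2, where 3.51% of all genes stood, and none of the 9 towards library 1, where 5.2% of all genes stood. At 4-fold or more there were 5 of the 9 genes, beside 0.846% of all genes. Since the genes were chosen on this contrast, these counts support nothing by themselves. Ctrb1 and Clps lay just under 4-fold.

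**Figure D2:**
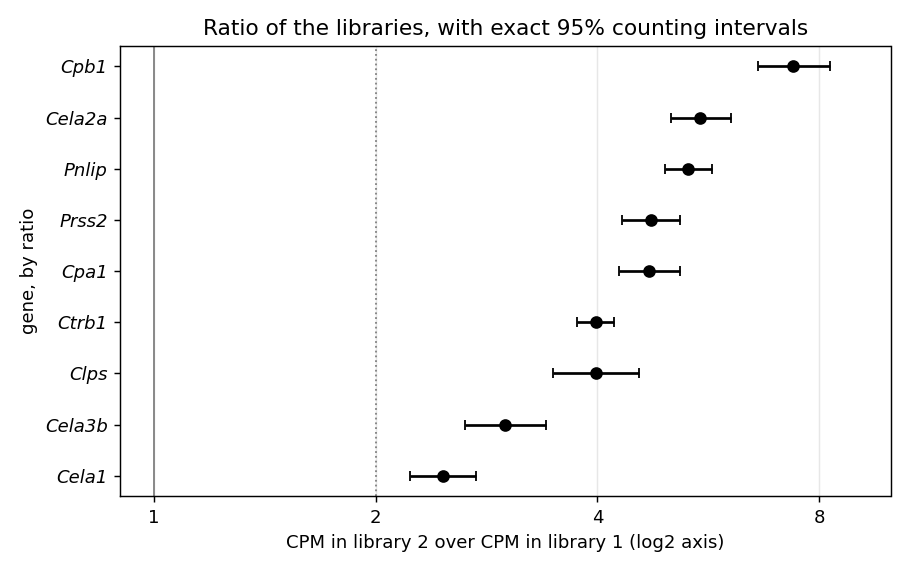
Ratio of CPM in library 2 over library 1 for each enzyme gene on a log2 axis, with exact 95% counting intervals. The solid line marks equal levels and the dotted line 2-fold. Cpb1 (7.38) and Cela1 (2.47) stand at the ends of the range.

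By level, the genes kept a broad order in both libraries. Levels of different genes were compared in TPM, which divides counts by the merged exon length. Ctrb1 led with 385 TPM in library 2 and 97.8 TPM in library 1, a mean of 241 ± 203 TPM (SD, n = 2). Prss2 followed with 192 TPM in library 2 and 41.1 TPM in library 1. The level of Ctrb1 exceeded that of Prss2 within each library, by a mean log2 ratio of 1.13 ± 0.18 (SD, n = 2), and Prss2 exceeded Pnlip by 0.79 ± 0.12. Pnlip had 118 TPM in library 2 and 22.4 TPM in library 1, and Clps had 102 TPM in library 2 and 25.9 TPM in library 1. Cela2a had 96.5 TPM in library 2 and 17.7 TPM in library 1, and Cpa1 had 79.7 TPM in library 2 and 17.1 TPM in library 1. The neighbours in the order between Pnlip and Cpa1 did not differ in level by more than the SD of the 2 libraries. A step followed from Cpa1 to Cpb1, at a mean log2 ratio of levels of 1.15 ± 0.46 (SD, n = 2). It depends on the merged exon lengths, 1750 bases for Cpa1 and 3284 for Cpb1. By CPM the means of the 2 libraries were close, at 31.1 for Cpa1 and 30.9 for Cpb1. The lowest genes were Cpb1 with 45.1 TPM in library 2 and 6.18 TPM in library 1, Cela3b with 34.8 TPM in library 2 and 11.8 TPM in library 1, and Cela1 with 33.5 TPM in library 2 and 13.7 TPM in library 1. Cpb1 was above Cela1 in library 2 and below it in library 1, and the last neighbours, Cela1 and Cela3b, also changed places.

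Within the summed TPM of the 9 genes, the makeup was similar but not equal. Ctrb1 made up 35.4% of the sum in library 2 and 38.6% in library 1, a mean of 37.0% ± 2.22 (SD, n = 2). Prss2 made up 17.7% in library 2 and 16.2% in library 1, and Pnlip made up 10.9% in library 2 and 8.84% in library 1. Clps made up 9.38% in library 2 and 10.2% in library 1. Cela1 took 3.08% of the sum in library 2 and 5.41% in library 1, and Cela3b took 3.20% in library 2 and 4.63% in library 1. Cpb1 went the other way, with 4.15% in library 2 and 2.43% in library 1. Cela2a took 8.88% in library 2 and 6.96% in library 1, and Cpa1 took 7.34% in library 2 and 6.76% in library 1. Apart from these shifts, Ctrb1 and Prss2 together held more than any other pair of genes in both libraries.

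**Figure D3:**
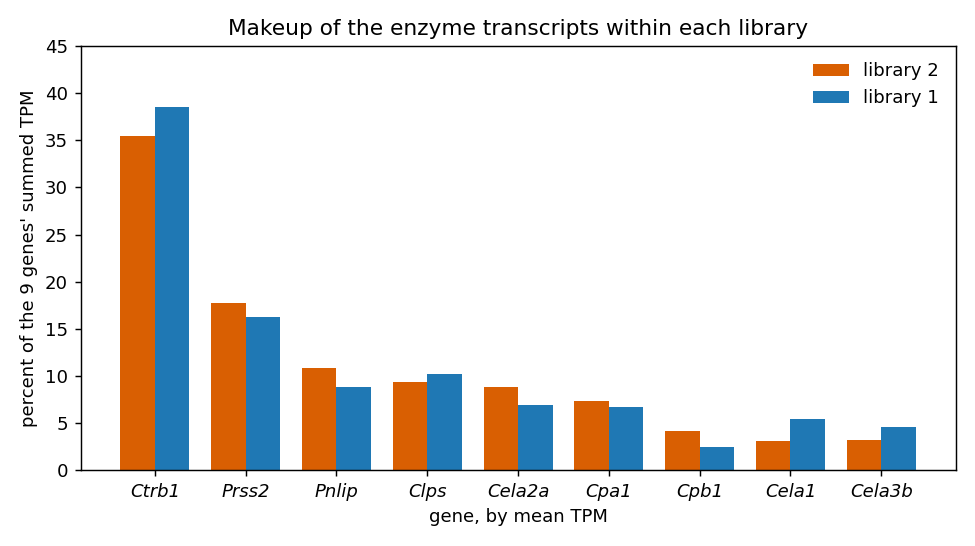
Share of each gene in the summed TPM of the 9 enzyme genes, in percent, in library 2 (orange) and library 1 (blue). Ctrb1 takes 35.4% in library 2 and 38.6% in library 1. Cela1 and Cela3b take less in library 2, and Cpb1 takes more.

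Transcripts of other digestive enzymes of acinar cells showed the same direction. Of 22 further genes, 15 had 10 or more reads summed, 13 of these were at 2-fold or more towards library 2, beside 3.51% of all genes, and none towards library 1. Their median log2 ratio was 2.24. A gene with few reads in library 1 passes the filter on reads only through library 2, so these counts describe the list and do not support its difference. Cel, which encodes the bile salt-dependent lipase, had 74.4 CPM in library 2, against 11.1 CPM in library 1, a ratio of 6.70 (6.13 to 7.36). Pnliprp1, a relative of pancreatic lipase, had 54.4 CPM in library 2, against 13.4 CPM in library 1, a ratio of 4.06 (3.72 to 4.43). Rnase1, the pancreatic ribonuclease, had 18.1 CPM in library 2, against 2.97 CPM in library 1, and Ctrl, a chymotrypsin-like protease, had 19.8 CPM in library 2, against 3.91 CPM in library 1. The ratio was 6.07 (5.10 to 7.32) for Rnase1 and 5.07 (4.33 to 5.97) for Ctrl, within the range of the 9 genes. The 2 genes that passed the filter and stayed under 2-fold were Dnase1, with 3.69 CPM in library 2, against 3.67 CPM in library 1, and Try10, with 6 reads in library 2 and 7 in library 1. Prss1 and 3 amylase copies had no read in either library. Of the list, 12 genes reached 1 CPM in library 2 and 10 in library 1. Of all 55487 genes, 13834 did so in library 2 and 13995 in library 1.

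The trypsinogen genes lie together on chromosome 6, and their counts are partly shared. Try4, a trypsin gene from 41302269 to 41305532, had 25.2 CPM in library 2, against 4.31 CPM in library 1. Try5, from 41311233 to 41316841, had 19.1 CPM in library 2, against 5.49 CPM in library 1. The ratio was 5.84 (5.04 to 6.81) for Try4 and 3.48 (3.03 to 4.01) for Try5, but 65.6% of the words of Try4 and 47.6% of those of Try5 occur in other genes, mostly in each other, so their split is uncertain. A sum over Prss1, Prss2, Prss3, Try4, Try5 and Try10 does not depend on the split among these 6 genes. It still depends on the split with genes outside it: 65.1% of the words of Prss3 occur in Gm10334 and 38.9% of those of Prss1 in Gm5771. Reads of the 6 genes numbered 4010 in library 2 and 1121 in library 1, or 103 CPM in library 2, against 22.4 CPM in library 1. The sum leaves out 2210010C04Rik, a gene of the same chromosome to which the annotation used here gives no function, with 2274 reads in library 2 and 579 in library 1. The summed ratio was 4.60 (4.30 to 4.92), close to the 4.73 of Prss2 alone.

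Transcripts of acinar secretory and protective proteins were also higher in library 2, with wider ratios. Of 17 genes for acinar secretory and protective proteins, 15 had 10 or more reads summed and 14 of these were at 2-fold or more towards library 2, with a median log2 ratio of 2.30, beside 3.51% of all genes at 2-fold. Reg3a, with no read in library 1, and Reg3b, with 1, passed the filter only through library 2, so this count too is only a description. The gene that passed the filter and stayed under 2-fold was Erp27, with 11 reads in library 2 and 9 in library 1. Sycn, for the zymogen granule protein syncollin, had 5.05 CPM in library 2, against 2.09 CPM in library 1. Zg16, for another zymogen granule protein, had 10.4 CPM in library 2, against 4.21 CPM in library 1. Their ratios of 2.41 (1.89 to 3.09) and 2.47 (2.09 to 2.93) were near that of Cela1. Klk1, for tissue kallikrein, had 6.72 CPM in library 2, against 1.36 CPM in library 1, a ratio of 4.92 (3.78 to 6.56), with 24.0% of its words in other genes. Reg1, a lectin-like secreted protein, had 10.7 CPM in library 2, against 2.87 CPM in library 1, a ratio of 3.72 (3.08 to 4.54). Among the 6 genes of this list with the highest mean TPM, Reg2 and Dmbt1 had the highest ratios. Reg2 had 17.3 CPM in library 2, against 1.22 CPM in library 1. Dmbt1, for a scavenger receptor protein of secreting epithelia, had 51.6 CPM in library 2, against 3.93 CPM in library 1. The ratios were 14.1 (10.9 to 18.7) for Reg2 and 13.1 (11.3 to 15.3) for Dmbt1, both above the interval of Cpb1. Reg3a and Reg3b, given further on, had higher ratios still. Of the words of Reg2, 11.3% occur in other genes.

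Acinar transcription factors and receptors had few reads, apart from Bhlha15 and Gata4. Ptf1a had 3 reads in library 2 and none in library 1, where a count of 0 allows up to 3 reads or 0.0599 CPM. An antisense gene covers 35.4% of its words. Rbpjl, the partner of Ptf1a in acinar cells, had 21 reads in library 2 and 9 in library 1, a ratio of 2.91 (1.32 to 7.44). Nr5a2 had 14 reads in library 2 and 16 in library 1, and Gata4 had 1.62 CPM in library 2, against 1.82 CPM in library 1. Bhlha15, a transcription factor of secretory cells also named Mist1, had 179 CPM in library 2, against 126 CPM in library 1, a ratio of 1.42 (1.37 to 1.47). The ratio of Bhlha15 lay below the interval of every one of the 9 enzyme genes. Cckar, the cholecystokinin receptor through which meals stimulate acinar secretion, had 33 reads in library 2 and 10 in library 1, a ratio of 4.10 (2.04 to 9.65). The water channel Aqp12 had 16 reads in library 2 and none in library 1, a ratio whose lower 95% counting limit was 4.96, and Aqp8 had 1 read in library 2 and 7 in library 1.

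Genes that act on trypsinogen or respond to trypsin stayed within 2-fold or had no read. Tmprss15, which encodes enteropeptidase, had no read in either library, which allows a level of up to 0.0769 CPM in library 2 and up to 0.0599 CPM in library 1. Ctsb, which encodes the lysosomal protease cathepsin B, had 188 CPM in library 2, against 189 CPM in library 1, with 12.1% of its words in other genes. Ctsl, for cathepsin L, had 106 CPM in library 2, against 120 CPM in library 1, with 26.3% of its words in other genes. F2rl1, for the receptor PAR2 that trypsin activates by cutting it, had 28.7 CPM in library 2, against 28.7 CPM in library 1. The ratio of F2rl1 was 1.003 (0.927 to 1.09) and that of Ctsb 0.996 (0.966 to 1.03).

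**Figure D4:**
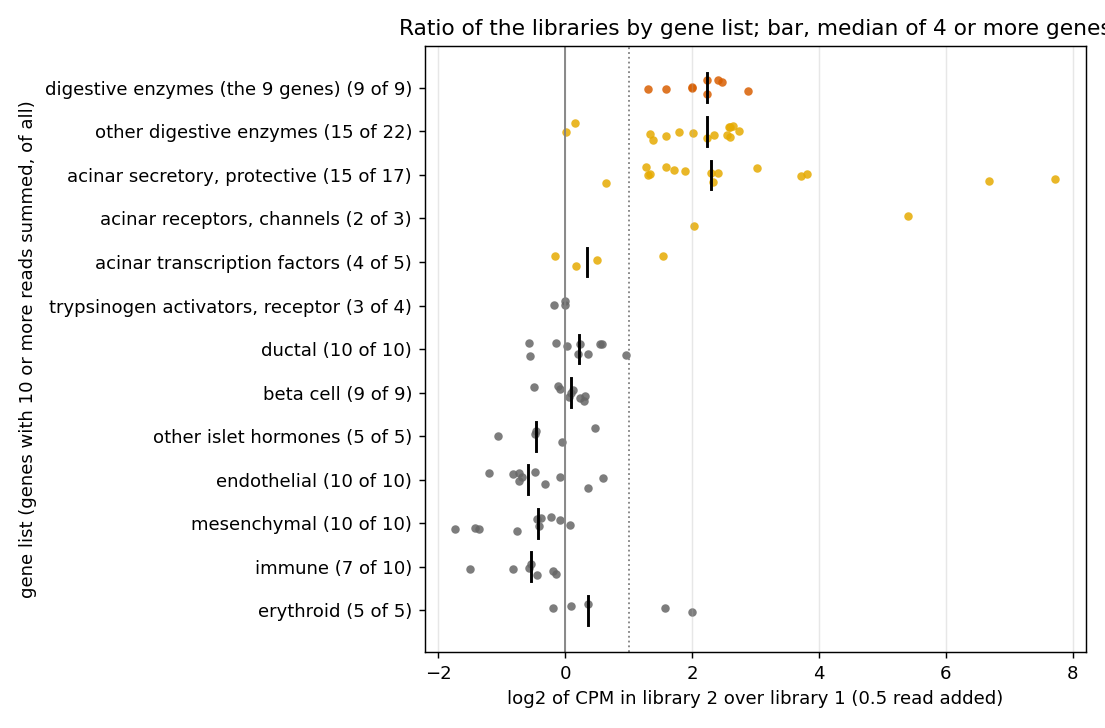
Log2 ratio of library 2 over library 1, with 0.5 read added, for the genes of each list with 10 or more reads summed (number of all genes in the list in parentheses). Bars mark medians of lists with 4 or more such genes, the solid line equal levels and the dotted line 2-fold. The enzymes and the secretory proteins have medians between 2.23 and 2.30, while the medians of the ductal, beta-cell and other cell lists lie between -0.58 and 0.36. The points of Reg3a and Aqp12, which had no read in library 1, depend on the added 0.5 read.

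Markers of beta cells were high and close between the libraries, and the median log2 ratios of the lists of other cell types lay below that of the enzymes. The 9 beta-cell markers had a median log2 ratio of 0.10, none of them at 2-fold in either direction, and the share of reads from the insulin genes was 16.4% in library 2, against 16.1% in library 1. The 10 ductal markers summed to 1472 CPM in library 2, against 1171 CPM in library 1, with a median log2 ratio of 0.21 and none at 2-fold. Spp1 alone made 967 CPM of this sum in library 2 and 659 CPM in library 1. Of the 10, 7 were higher in library 2, with Krt19 at 1.94-fold (1.52 to 2.50). Sums were lower in library 2 for endothelial markers (23.9 CPM in library 2, against 32.6 CPM in library 1), mesenchymal markers (11.7 CPM in library 2, against 19.1 CPM in library 1), immune markers (44.7 CPM in library 2, against 53.3 CPM in library 1) and the other islet hormones (2641 CPM in library 2, against 2952 CPM in library 1). C1qa alone made 35.3 CPM of the immune sum in library 2 and 39.1 CPM in library 1. Ppy was the 1 of the 5 hormones that was higher in library 2. Erythroid markers were near the limit of counting, at 2.67 CPM in library 2, against 1.34 CPM in library 1, and 2 of the 5 (Hbb-bs and Alas2) were at 2-fold or more towards library 2. Acinar genes other than the 9 enzymes, 47 in all, summed to 569 CPM in library 2, against 206 CPM in library 1, of which Bhlha15 alone made 179 CPM in library 2, against 126 CPM in library 1. Of these 47 genes, 43 had a read in library 2 and 40 in library 1. Of all 55487 genes, 30732 had a read in library 2 and 32026 in library 1. Of the 36 acinar genes that passed the filter, 30 were at 2-fold or more towards library 2, beside 3.51% of all genes. Some passed only through library 2, so the count is a description. The transcription factors among the 47 had a median log2 ratio of 0.34, with 1 of the 4 that passed the filter at 2-fold. The part of acinar cells in the enzyme reads was not tested.

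Of 9286 genes whose mean reached 10 CPM, 0.689% were at 2-fold or more towards library 2, and 47 had a log2 ratio at or above that of Cela1. These 47 comprised the 9 enzyme genes, 8 other acinar genes and 30 genes of no acinar list. The 5 genes outside the acinar lists whose log2 ratio lay closest to the median of the 9 were 2210010C04Rik, Gbp4, Irgm1, Inpp4b and Igtp, at differences between -0.23 and 0.25 over only 2 libraries. 2210010C04Rik (ENSMUSG00000029882, chromosome 6 from 41030268 to 41035509, minus strand) was the closest, with 58.3 CPM in library 2, against 11.6 CPM in library 1. It lies on the same chromosome as the trypsinogen genes, at lower coordinates than Try4. Gbp4, an interferon-inducible GTPase, had 129 CPM in library 2, against 31.8 CPM in library 1. Irgm1 had 46.0 CPM in library 2, against 11.5 CPM in library 1, and Igtp had 54.5 CPM in library 2, against 9.74 CPM in library 1. For Inpp4b the levels were 49.0 CPM in library 2 and 12.3 CPM in library 1. With 2 libraries, any gene with a like ratio appears as near as these.

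**Figure D5:**
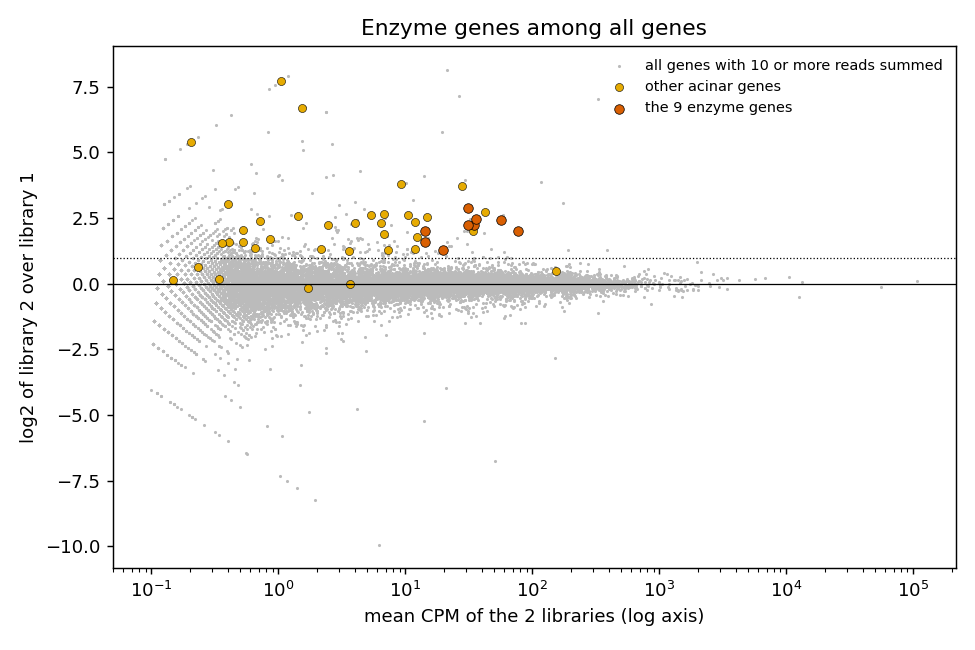
Log2 ratio of library 2 over library 1 against the mean CPM of the libraries (log axis) for all 20681 genes with 10 or more reads summed (grey), other acinar genes (yellow) and the 9 enzyme genes (orange). The enzyme genes lie between 1.30 and 2.88, and 47 of the 9286 genes whose mean reached 10 CPM lie at or above Cela1.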

How the data were processed

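RNA from sorted islet cells of the mutant mice was sequenced in 2 libraries, which form 1 group. Per the file headers, the authors deposited for each gene a raw read count, a TPM value and a CPM value. Reads were trimmed, aligned to GRCm38.p6 and counted with tools listed in the submitters' processing notes (featureCounts 2.0.2, STAR 2.7.8a, cutadapt 2.10). Settings for strand and multiple matches were not given in the sources used here. Each deposited CPM equals the count over the library total to within 1.8e-12. The deposited TPM divides counts by gene length, which for all 9 genes was the merged exon length in GENCODE M21 to within 1%. Library 2 held 39003197 counted reads and library 1 held 50121771, so a count of 0, taken to allow 3 reads, allows up to 0.0769 CPM in library 2 and up to 0.0599 CPM in library 1.

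Ratios are library 2 over library 1 with 0.5 read added to each count. Intervals at 95% are exact: Clopper-Pearson for shares, and conditional on the summed count for ratios. With 1 group, no model across groups could be fitted, and the genes were chosen on this contrast, so no test was run on it. A chi-square test of homogeneity over 20681 genes gave 28.6 per degree of freedom, so the libraries differed by more than counting error, the only error it covers, and were kept as 2 samples. The spread between libraries may still be technical. The members and gene lists were chosen with earlier results of these data known. Named were the 9 genes, up to 6 genes of highest mean TPM of each acinar list, and the 5 genes of like ratio. Exceptions chosen after values were seen were Dnase1, Try10, Erp27, Hbb-bs, Alas2 and the Reg3 and amylase genes. Shared words are 50-base stretches, both strands, of GENCODE M21 transcripts. Alternatives were edgeR 4.0.16 TMM factors, DESeq2 1.42.0 size factors, other totals, added reads and filters. Calculations used Python 3.11.15, pandas 2.3.3 and scipy 1.17.1 and were tested on simulated data.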

Additional observations from a re-analysis of the deposited data

How the results depend on the processing

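All 9 genes kept their direction and stayed at 2-fold or more under TMM factors, DESeq2 size factors, deposited TPM, totals without Ins1 and Ins2, and 1 or no read added. Their log2 ratios then ran between 1.29 and 2.91, all 54 within the counting interval of the gene. The median log2 ratio of all genes tested ran only between -0.06 and -0.02 over these settings. They could therefore hardly change the direction of well-counted genes with such ratios, and the agreement adds little. With trypsinogen genes summed in place of Prss2 the median log2 ratio was 2.20. At 4-fold, 5 of 9 genes stood. The background of 3.51% became 15.6% with no filter on reads, 1.32% where the mean had to reach 1 CPM and 0.846% at 4-fold. The mean summed level of 315 CPM lay between 115 and 516 CPM with either library left out. Leaving out genes that share 10% or more of their words, an alternative chosen after seeing the data, left 7 other digestive enzymes at 2-fold, since fewer genes were counted, at a median log2 ratio of 2.34, and 7 of the 9 enzyme genes at an unchanged median of 2.23. By CPM in place of TPM, 7 of the 9 genes changed rank, since CPM is not scaled by length, and Ctrb1 made up 25.6% of the sum. The cause of other changes was not tested. No paired analysis was possible because the libraries form 1 group. Depth limits what can be said of genes with few reads, such as Ptf1a, Rbpjl, Nr5a2, Cckar, Aqp8 and Aqp12.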

Other observations

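The Reg3 genes, which encode secreted lectins that pancreatitis and infection are known to induce, stood out among the secretory proteins and were chosen for mention after their values were seen. Reg3b had 119 reads in library 2 and 1 read in library 1, a ratio with a counting interval of 26.9 to 6090. Reg3a had 82 reads in library 2 and none in library 1, a ratio whose lower 95% counting limit was 27.9. Reg3d had 7 reads in library 2 and 1 in library 1, and so had Reg3g. The words of these 4 genes occurred in no other gene. Their ratios exceeded that of every one of the 9 enzyme genes for Reg3a and Reg3b, and were too poorly counted to compare for Reg3d and Reg3g.

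Amylase reads were few. Amy2b had 95 reads in library 2 and 20 in library 1, a ratio of 5.99 (3.74 to 10.4), and the 5 Amy2a copies together had 5 reads in library 2 and 2 in library 1. Of the words of Amy2a2, Amy2a3 and Amy2a4, 100% occur in other copies. How reads that match several places were counted is not given in the sources used here, so the low amylase counts may understate amylase RNA.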
